A study of Mus musculus with 2 samples.

Results

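The BCL2 family genes of regulatory T cells (Tregs) were examined in 2 RNA-seq libraries, one of splenic and one of lung Tregs. The 10 genes were taken by symbol from the deposited values, which list the same 24346 symbols in both libraries, and all 10 were found in each. They are Mcl1, Bcl2, Bcl2l1, Bcl2a1b and Bcl2a1d, which protect cells, Bak1, an effector of cell death, and Bcl2l11, Bid, Bad and Pmaip1, which promote it. Both libraries came from Foxp3-DTR-GFP (FDG) mice, adult animals in which GFP reports Foxp3, the transcription factor that defines Tregs, and which also carry the diphtheria toxin receptor (DTR). All mice had received 50 μg of bleomycin (BLM) into the trachea, which injures the lung and leads to fibrosis, and GFP+CD4+ cells were sorted on day 15. Cells from 3 mice were combined for each tissue into a single library, 1 of spleen and 1 of lung, so that differences cannot be set against variation between mice and no test was run. Only BLM-treated mice are represented in these libraries, so the values compare tissues and not treatments.

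Proteins of the BCL2 family decide at the mitochondrion whether a cell lives or dies. Pro-survival proteins hold the pore-forming effectors BAX and BAK in check, and the BH3-only proteins bind pro-survival proteins or activate the effectors, so the outcome depends on the amounts of both sides. In Tregs, MCL1 is needed for survival and BIM, the product of Bcl2l11, limits cell number, while BCL2 and BCL-XL, the product of Bcl2l1, are induced by cytokine and antigen receptor signals in T cells.

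Bcl2a1b and Bcl2a1d encode A1, a short-lived pro-survival protein induced by NF-κB in lymphocytes and myeloid cells. They are copies of one gene on chromosome 9, together with Bcl2a1a and the shorter Bcl2a1c. Their sequences are shown first because reads of 75 bases cannot always be given to one copy, which bears on every value of these genes. The stretches below hold the first 120 coding bases of 3 copies in GRCm38 (GENCODE M21), with capitals at the 7 positions at which they are not all alike. Bcl2a1b lies at chr9:89199360-89199479 on the plus strand, Bcl2a1d at chr9:88731600-88731719 on the minus strand and Bcl2a1a at chr9:88957051-88957170 on the plus strand.
Bcl2a1b: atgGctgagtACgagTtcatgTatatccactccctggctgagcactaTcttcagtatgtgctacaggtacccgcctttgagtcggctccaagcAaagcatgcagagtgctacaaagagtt
Bcl2a1d: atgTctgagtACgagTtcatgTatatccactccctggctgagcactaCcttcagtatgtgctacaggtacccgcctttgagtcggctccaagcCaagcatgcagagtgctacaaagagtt
Bcl2a1a: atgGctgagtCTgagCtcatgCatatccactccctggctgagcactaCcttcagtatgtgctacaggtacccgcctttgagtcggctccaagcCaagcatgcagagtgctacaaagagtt

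Counted from the first coding base, Bcl2a1d differs from Bcl2a1b by G4T, T48C, A94C, G312A, C381G and T490A, with the base of Bcl2a1b given first. These are 6 differences in 519 coding bases. Over the whole transcripts, 323 windows of 75 bases were identical between both genes, 43.5% of the windows of Bcl2a1b and 40.9% of those of Bcl2a1d. Windows found in no other copy made up 56.5% of Bcl2a1b, 32.4% of Bcl2a1d, 44.8% of Bcl2a1a and 96.2% of Bcl2a1c. How the authors' processing divided reads of shared windows among the copies is not stated, so the split between copies is uncertain and their sum is given as well.

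The likeness extends upstream of the genes. The 186 bases before the annotated starts were read from the RefSeq promoter table (GRCm38.p6), for Bcl2a1b at chr9:89199023-89199208 on the plus strand and for Bcl2a1d at chr9:88731915-88732100 on the minus strand. Capitals mark GAGGAAGT, a purine-rich motif of the kind that ETS factors bind.
Bcl2a1b: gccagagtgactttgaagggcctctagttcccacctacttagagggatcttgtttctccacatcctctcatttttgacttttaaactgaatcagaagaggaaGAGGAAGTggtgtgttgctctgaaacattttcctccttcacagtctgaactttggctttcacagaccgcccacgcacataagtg
Bcl2a1d: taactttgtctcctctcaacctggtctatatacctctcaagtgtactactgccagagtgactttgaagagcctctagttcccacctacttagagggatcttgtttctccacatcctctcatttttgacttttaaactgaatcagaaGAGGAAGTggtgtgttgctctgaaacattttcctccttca
The stretches are offset, because the transcripts start at different places, which leaves 94 bases at the ends unaligned. Within the overlap, 1 of 136 aligned bases differed, and a gap of 6 bases lay beside the marked motif, where Bcl2a1b has the longer sequence. GAGGAAGT was searched on both strands in promoters of 300 bases. It occurred in 1052 of 32851 promoters (3.20%), among them promoters of Bcl2a1b, Bcl2a1d, Bad and Bak1. A consensus motif of NF-κB, 10 bases long, was searched in the same way. It occurred in 535 promoters (1.63%), among them promoters of Bcl2l1 and Mcl1, and was not found in those of Bcl2a1b and Bcl2a1d. Other forms of the NF-κB motif were not searched, so whether these promoters hold an NF-κB site stays open. Of the 10 genes, 9 matched the table. These matches describe sequence and were not linked to the expression values.

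Expression was measured as FPKM, fragments scaled to transcript length and to the number of mapped fragments, which allows levels to be compared between genes. In splenic Tregs, Mcl1 had the highest level of the 10 genes (186 FPKM), followed by Bcl2a1b (111) and Bcl2 (103). Bid was at 34.3 FPKM, and Bcl2l1, Bad, Pmaip1, Bcl2a1d and Bcl2l11 lay between 21.5 and 13.0 FPKM. In lung Tregs, Bcl2a1b was highest (319.7 FPKM), followed by Mcl1 (203), Bcl2a1d (94.9), Pmaip1 (72.8) and Bcl2 (56.4). Bad and Bcl2l1 were at 40.5 and 40.4 FPKM, Bid at 34.9 and Bcl2l11 at 14.4. Bak1 was lowest in spleen (0.807 FPKM) and in lung (0.900 FPKM). From spleen to lung, Bcl2a1d moved up from rank 8 to rank 3 and Pmaip1 from 7 to 4, while Bid moved down from 4 to 8.

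The reads behind these values were estimated from the worth of 1 read, which for an effective length of 1 kb was 0.0964 FPKM in spleen and 0.0849 in lung, and 95% counting intervals were derived from them. These intervals treat each estimated read as independent and say nothing of the variation between mice. Because the protocol adds no molecular identifiers, PCR duplicates count as reads, and the intervals can be too narrow even for counting error. In spleen, the exact Poisson intervals of neighbours in the order overlapped between Bcl2a1b and Bcl2 and along the run from Bcl2l1 through Bad, Pmaip1 and Bcl2a1d to Bcl2l11. In lung, Bad and Bcl2l1 were the only neighbours whose intervals overlapped.

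**Figure D1:**
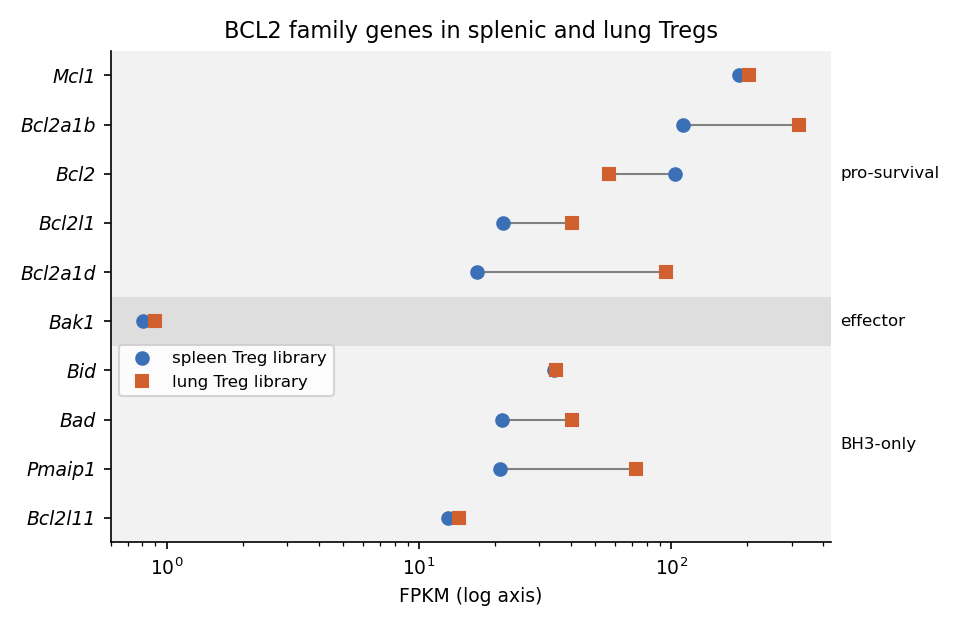
FPKM (log axis) of the 10 genes in the splenic (circles) and lung (squares) Treg library, 1 library per tissue, grouped by role. The distance between the symbols is widest for Bcl2a1d (16.9 and 94.9 FPKM), Pmaip1 (21.0 and 72.8) and Bcl2a1b (111 and 319.7), and Bcl2 alone has its higher value in spleen (103 and 56.4).

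Ratios of lung to spleen were taken after values under 0.1 FPKM had been set to 0.1. Over 2-fold higher in lung were 3 of the 10 genes, Bcl2a1b, Bcl2a1d and Pmaip1. Of the 12094 genes that reached 1 FPKM in one or both libraries, 17.8% were over 2-fold higher in lung. None of the 10 genes was over 2-fold lower, where the share of all genes was 15.5%, and 7 were within 2-fold. Among the 5091 genes that reached 20 FPKM, which is nearer to the level of most of the 10 genes, 11.6% were over 2-fold higher and 6.72% over 2-fold lower. At a lower limit of 1.5-fold, 5 of the 10 genes were higher in lung, beside 27.4% of all genes, and 1 was lower, beside 25.4%. The limit of 20-fold, which the study used, was passed by 0 of the 10 genes and by 5.61% of all genes in either direction. The median log2 ratio of the 10 genes was 0.53, beside 0.03 over all tested genes, whose middle 50% lay between -0.60 and 0.66. Bak1, which did not reach 1 FPKM, is part of the first median, and over the other 9 genes it was 0.91. With 10 genes, the count of 3 describes these libraries and was not tested.

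The scaling between the libraries affects small ratios. The FPKM summed to 599633 in spleen and 808853 in lung. Rescaling both to TPM, in which each library has the same sum, moved the log2 ratio of each of the 10 genes by -0.43, whereas taking a list of 10 T cell genes as the reference moved it by 0.20. Under TPM, 13.1% of all genes exceeded 2-fold on the side of lung and 25.9% on the side of spleen, and with the T cell reference the shares were 21.6% and 12.5%. Under all 5 scalings tried, 6 of the 10 genes kept their direction, namely Bcl2a1b, Bcl2a1d, Pmaip1, Bcl2l1 and Bad, which were higher in lung, and Bcl2, which was lower. Mcl1, Bak1, Bcl2l11 and Bid were higher by 0.16 or less on the log2 scale as deposited and lower under TPM.

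**Figure D2:**
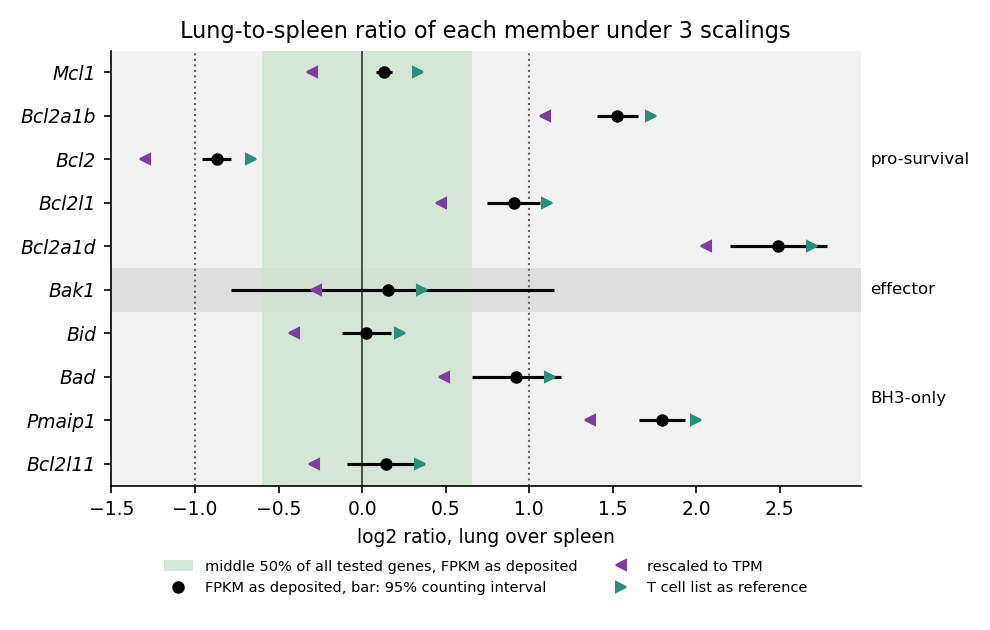
Log2 ratio of lung to spleen for each of the 10 genes as deposited (black, with the 95% counting interval), after rescaling to TPM (left-pointing triangles) and with the T cell list as reference (right-pointing triangles). The shaded band holds the middle 50% of all tested genes (-0.60 to 0.66) and dotted lines mark 2-fold. Bcl2a1b, Bcl2a1d and Pmaip1 lie beyond 2-fold with each scaling drawn, whereas Mcl1, Bak1, Bid and Bcl2l11 change sign under TPM.

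Among the pro-survival genes, the A1 copies and Bcl2l1 were higher in lung, Bcl2 was lower and Mcl1 had a ratio near 1 that lay above it as deposited and below it under TPM. Mcl1 (chr3:95658788-95663176 in GRCm38, as for the other genes, plus strand, 3 exons) encodes a protein of rapid turnover on which many lymphocytes depend. It measured 186 FPKM in spleen and 203 FPKM in lung, a ratio of 1.09 (counting interval 1.06 to 1.13), which became a log2 ratio of -0.30 under TPM. It stood at percentile 95.4 of the genes with at least 1 FPKM in spleen and at percentile 94.5 in lung.

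Bcl2 (chr1:106538178-106714274, minus strand), the founding member of the family, had 103 FPKM in the splenic library and 56.4 in lung. It was 1.83-fold lower in lung (counting interval 1.72 to 1.94), just within the 2-fold limit, and passed it under TPM with a log2 ratio of -1.30. With the T cell list as reference, Bcl2 had a log2 ratio of -0.67 and stayed within the limit. The estimate of its reads depends on which of its annotated transcripts, of 2841 and 7191 bases, was counted, and ranged from 2814 to 7464 in spleen. Of its exon bases, 6.09% overlap D630008O14Rik, a gene without a value here, on the other strand. Bcl2 stood at percentile 91.3 in spleen and at 81.9 in lung. By its ratio, Bcl2 ranked 2175 from the lowest among 12094 genes, so a difference of this size was common among all genes, low ones included. It was less so among the 5091 genes that reached 20 FPKM, as Bcl2 did. Their lower quartile of the log2 ratio was -0.35, beside -0.87 for Bcl2, and 6.72% were over 2-fold lower.

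Bcl2l1 (chr2:152780668-152831728, minus strand, 3 exons) measured 21.5 FPKM in spleen and 40.4 FPKM in lung. The lung value was 1.87-fold higher (counting interval 1.68 to 2.09), the opposite direction to Bcl2. Within a library, where no scaling between libraries enters, Bcl2 exceeded Bcl2l1 by 4.79-fold in spleen and by 1.40-fold in lung. These close relatives have a like function, and their levels were nearer to each other in the lung library.

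Bcl2a1b (chr9:89199209-89207827, plus strand, 2 exons) had 111 FPKM in the splenic library and 319.7 in lung, 2.88-fold higher (counting interval 2.65 to 3.14). Bcl2a1d (chr9:88723285-88731914, minus strand, 2 exons) measured 16.9 FPKM in spleen and 94.9 FPKM in lung, 5.62-fold higher (4.59 to 6.88), the highest ratio of the 10 genes. By ratio they ranked 1512 and 1006 among 12094 genes. The sum of both was 128 FPKM in spleen and 415 in lung (3.25-fold), and the sum of all 4 copies was 135 and 451 (3.35-fold). A sum is less affected by how reads were divided among the copies, but whether shared reads were dropped or counted more than once is not stated. An annotated gene without a value here, Gm29094, shares 49.1% of the exon bases of Bcl2a1b on the same strand.

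The sum of the pro-survival genes was 438 FPKM in spleen and 715 in lung. Its makeup differed between the tissues. Mcl1 made up 42.4% of it in spleen and 28.5% in lung, and Bcl2 23.5% and 7.89%. Bcl2a1b made up 25.3% in spleen and 44.7% in lung, Bcl2a1d 3.86% and 13.3%, and Bcl2l1 4.91% and 5.65%. The 2 libraries thus held different leading survival genes, Mcl1 in spleen and the A1 copies in lung.

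Genes of the A1 family are also expressed by macrophages and neutrophils, and genes of these cells were higher in the lung library. In a macrophage list, 10 of 10 genes had the higher value in lung as deposited and 8 under TPM, 7 and 6 of them over 2-fold, and the list summed to 522 FPKM in spleen and 26871 in lung. The most abundant was Lyz2, lysozyme, at 376 and 24947 FPKM. Of 7 listed neutrophil genes, 5 were over 2-fold higher, with sums of 430 and 1222 FPKM, and S100a8 was the most abundant (276 and 804). Of 6 dendritic cell genes 3 were over 2-fold higher and 1 lower, with sums of 12.6 and 55.2 FPKM. The most abundant of them was Cd209a in spleen (3.86 FPKM) and Itgax in lung (24.1). Beside the counts of these 3 lists, 17.8% of all genes were over 2-fold higher in lung as deposited and 13.1% under TPM. Over 2-fold lower as deposited were 15.5% of all genes.

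Bcl2a1b and Bcl2a1d together amounted to 0.340 of the level of Lyz2 in spleen and to 0.0166 in lung. Lyz2 was 66.3-fold higher in lung and does not stand for all genes of these cells. The log2 ratios ran from 0.19 to 6.06 in the macrophage list and from 0.73 to 2.91 in the neutrophil list. In the dendritic cell list they ran from -3.05 to 4.14. What share of the A1 transcripts, or of any other gene named here, came from cells other than Tregs was not tested. In bulk samples, a different share of cells of one type and a different amount of RNA per cell cannot be told apart.

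Among the genes that drive cell death, Pmaip1 and Bad were higher in lung under every scaling, whereas Bid, Bcl2l11 and Bak1 had ratios near 1, higher as deposited and lower under TPM. Bak1 (chr17:27019810-27029009, minus strand, 6 exons) is one of the pore-forming effectors. Its values of 0.807 and 0.900 FPKM rest on about 18.2 and 23.1 reads, and the counting interval of its ratio, 0.581 to 2.21, allows either direction. Of its exon bases, 25.5% overlap Ggnbp1 on the other strand (0.218 and 1.44 FPKM), and the library protocol keeps no strand, so reads there cannot be assigned. Bak1 was the only one of the 10 genes below the 1 FPKM needed to be counted among all tested genes.

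Pmaip1 encodes NOXA, a BH3-only protein that binds mainly MCL1 and A1 and is a target of p53. It had 21.0 FPKM in the splenic library and 72.8 in lung, 3.47-fold higher (counting interval 3.16 to 3.82), and ranked 1344 among 12094 genes. Its estimated reads were 548 in spleen and 2158 in lung. Mcl1 exceeded Pmaip1 by 8.86-fold in spleen and by 2.79-fold in lung. The sum of Bcl2a1b and Bcl2a1d exceeded Pmaip1 by 6.09-fold in spleen and by 5.70-fold in lung, so that these genes differed between the libraries by similar factors.

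Bad (chr19:6941861-6951899, plus strand, 4 exons) encodes a BH3-only protein that binds BCL2 and BCL-XL and is held inactive by phosphorylation. It measured 21.3 FPKM in spleen and 40.5 FPKM in lung, 1.90-fold higher (counting interval 1.58 to 2.28). The ratio of Bcl2l1 to Bad was 1.01 in spleen and 0.998 in lung. Of the exon bases of Bad, 20.5% overlap Gpr137 on the other strand, which had 4.17 FPKM in the splenic library and 8.05 in lung.

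Bcl2l11 (chr2:128126038-128162547, plus strand) encodes BIM, the BH3-only protein that removes lymphocytes after cytokine withdrawal. Its values were 13.0 FPKM in spleen and 14.4 in lung, with a ratio of 1.10 (counting interval 0.940 to 1.29) that turned lower in lung under TPM (log2 ratio -0.29). Mcl1 exceeded Bcl2l11 by 14.3-fold in spleen and 14.2-fold in lung, whereas Bcl2 exceeded it by 7.92-fold and 3.93-fold. Bid (chr6:120891930-120916853, minus strand, 6 exons), which couples death receptors to mitochondria once caspase-8 has cleaved it, measured 34.3 FPKM in spleen and 34.9 FPKM in lung. Its ratio was 1.02 (0.918 to 1.13) as deposited and lower in lung under TPM (log2 ratio -0.41). The exons of Bid overlap Bcl2l13 on the other strand over 17.7% of their bases, and Bcl2l13 was at 7.59 and 4.67 FPKM.

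Bid made up 37.9% of the summed FPKM of the 5 pro-death genes in spleen and 21.4% in lung, and Pmaip1 23.2% and 44.5%. Bad contributed 23.6% and 24.8%, and Bcl2l11 14.4% and 8.79%. The leading pro-death gene was thus Bid in spleen and Pmaip1 in lung. The BH3-only genes summed to 89.7 FPKM in spleen and 163 in lung, 1.81-fold higher, beside 1.63-fold for the pro-survival genes.

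**Figure D3:**
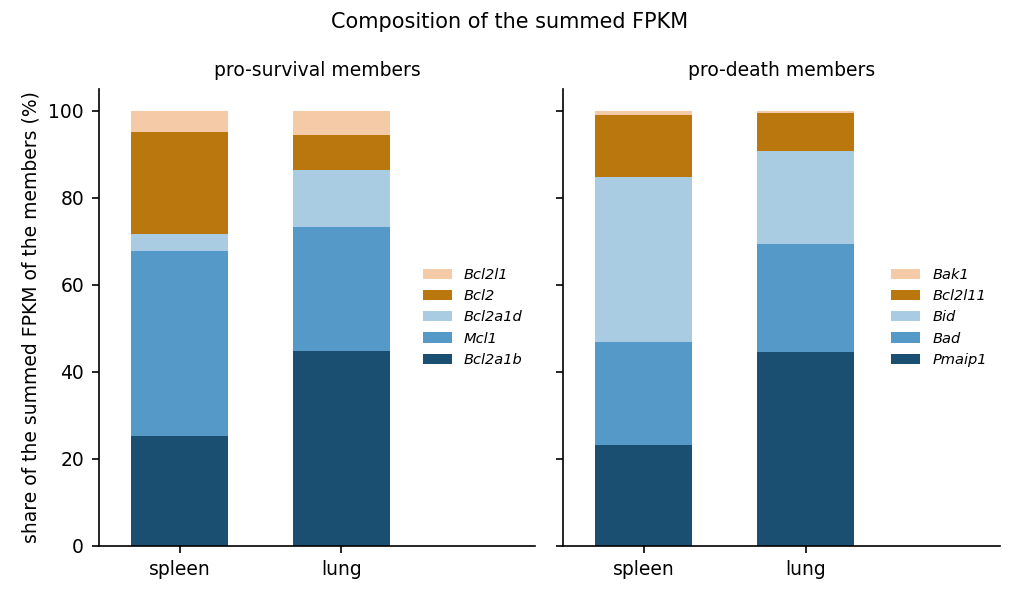
Share (%) of each gene in the summed FPKM of the 5 pro-survival genes (left) and the 5 pro-death genes (right) in the splenic and lung library, as stacked bars that start at 0. Bcl2a1b grows from 25.3% to 44.7% of the pro-survival sum while Bcl2 shrinks from 23.5% to 7.89%, and Pmaip1 grows from 23.2% to 44.5% of the pro-death sum.

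The ratio of the pro-survival sum to the pro-death sum does not depend on the scaling between libraries. It was 4.84 in spleen and 4.37 in lung, and the lung value was 0.903 of the splenic value (counting interval 0.841 to 0.969). The comparison depended on which genes were summed. Without Bcl2a1b and Bcl2a1d the ratio was 3.43 in spleen and 1.84 in lung, and without Mcl1 it was 2.79 and 3.13, which is higher in lung. Over all 20 family genes listed here, which add Bax to the pro-death side, it was 2.44 and 2.55. Transcript sums say nothing of protein amounts, since MCL1, A1 and NOXA are degraded rapidly and BAD and BID are controlled after translation.

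Of the 10 other BCL2 family genes, 7 had at least 1 FPKM in either library. Bax, the other main effector, was by far the most abundant of them, at 84.7 FPKM in spleen and 125 in lung (1.47-fold higher), and exceeded Bak1 by 105-fold in spleen and 138-fold in lung. The remaining A1 copies were low, with Bcl2a1a at 4.76 and 24.6 FPKM (5.16-fold) and Bcl2a1c at 2.04 and 12.2 (5.99-fold). Bbc3, which encodes the p53 target PUMA, had 5.73 FPKM in the splenic library and 1.97 in lung, 2.91-fold lower (counting interval 1.97 to 4.39). It differed in the direction opposite to Pmaip1, another BH3-only gene known as a p53 target.

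Bcl2l2, which encodes the pro-survival protein BCL-W, was at 0.415 and 1.91 FPKM (4.59-fold higher), and Bik, a BH3-only gene, at 1.05 and 2.77 (2.64-fold higher). Bok, an effector relative, was at 0.158 and 2.78 FPKM, a ratio of 17.6 whose counting interval, 4.69 to 154, shows the few reads in spleen. Beyond 2-fold, 5 of these 7 genes were higher in lung (17.8% of all genes) and 1 was lower (15.5%). Under TPM, 4 were higher and 1 lower, as Bik no longer passed. The 5 higher genes had between 0.158 and 4.76 FPKM in spleen, levels that rest on few reads. Bcl2l2 and Bok reached 1 FPKM in lung alone. With their splenic values, passing that filter by itself placed them over 2-fold higher, so the count of 5 only describes these values. Bcl2l10, Bmf and Hrk were below 1 FPKM in both libraries.

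**Figure D4:**
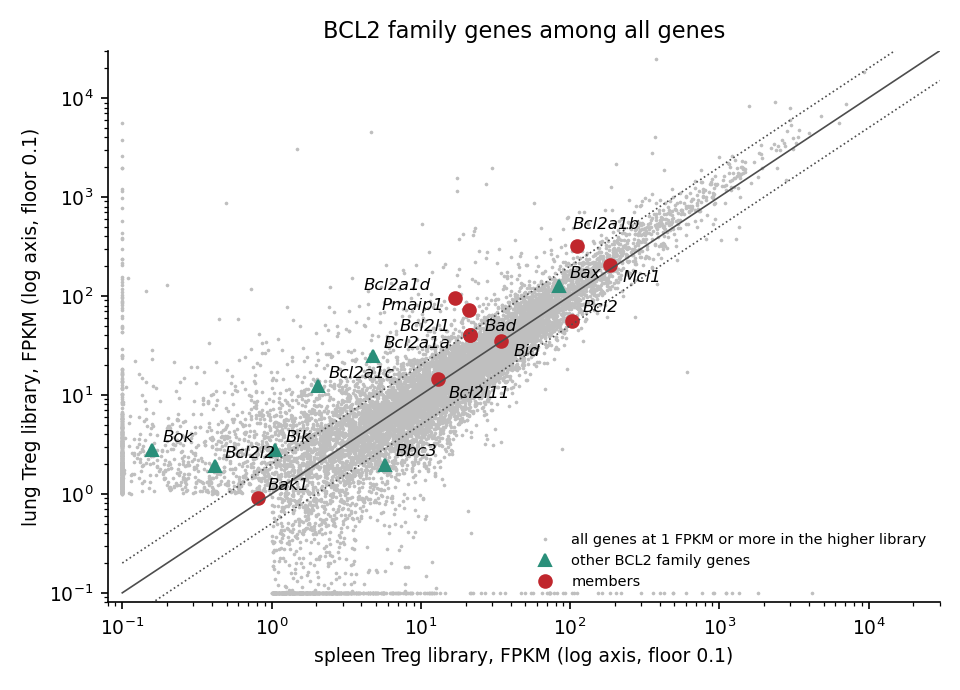
FPKM in the lung library against FPKM in the splenic library (log axes, values under 0.1 drawn at 0.1) for all genes that reached 1 FPKM (grey), the 10 genes (red circles) and the 7 other BCL2 family genes at that level (green triangles). The solid line marks equal values and dotted lines 2-fold. The A1 copies, Pmaip1, Bok, Bcl2l2 and Bik lie above the upper dotted line, and Bbc3 lies below the lower one.

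Genes that act beside and downstream of the BCL2 family were read from 4 further lists. Of their 29 genes, 1 was over 2-fold higher in lung (Birc5) and 0 were lower as deposited, beside 17.8% and 15.5% of all genes. Under TPM, 0 were higher and 5 were lower, beside 13.1% and 25.9% of all genes. The 9 genes of the apoptosome and of mitochondrial release ran from Diablo, an antagonist of inhibitor of apoptosis proteins (61.1 FPKM in spleen and 40.6 in lung), to Vdac3, a channel of the outer membrane (92.7 and 151). Their median log2 ratio was 0.27. The 6 apoptotic caspases had a median of -0.13. The lowest ratio among them was that of Casp2 (25.8 and 13.6 FPKM) and the highest that of Casp9, the initiator in the apoptosome (4.91 and 6.44).

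Of 5 inhibitor of apoptosis genes, Birc5, which encodes survivin and is expressed in dividing cells, measured 10.7 FPKM in spleen and 25.6 FPKM in lung (2.38-fold higher). The lowest of this list was Birc6 (13.4 and 12.6 FPKM), and the median log2 ratio was -0.03. Among 9 death receptor genes, the median was 0.09 and the ratios ran from Traf2, a signalling adaptor (40.0 and 23.7 FPKM), to Tnfrsf1a, a receptor of TNF (19.6 and 29.3). Under TPM, the medians of all 4 lists were below 0, from -0.57 for the caspases to -0.17 for the apoptosome list.

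**Figure D5:**
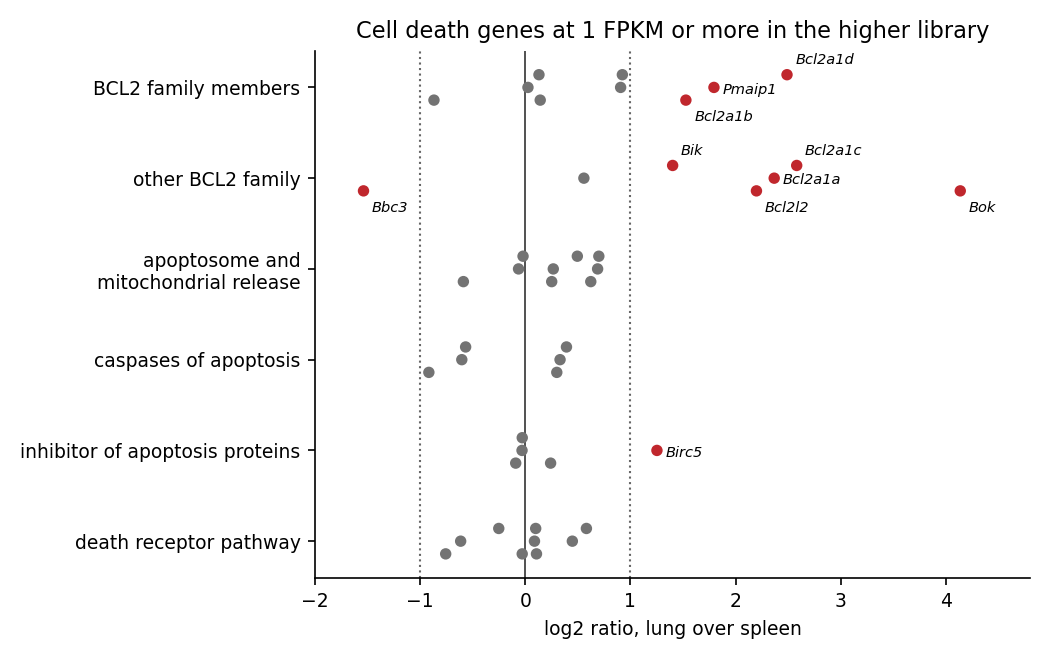
Log2 ratio of lung to spleen, FPKM as deposited, for genes of the BCL2 family and of 4 other cell death lists that reached 1 FPKM, 1 point per gene. Genes beyond 2-fold (dotted lines) are red and named. Of the 29 genes outside the BCL2 family, Birc5 alone (10.7 and 25.6 FPKM) lies beyond a line. TPM would move all points by -0.43, which takes Birc5 within 2-fold and 5 other genes of these lists below the lower line.

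The sort was checked with marker genes. Foxp3 had 18.7 FPKM in the splenic library and 41.8 in lung, which was over 2-fold higher as deposited but not under TPM. Of 7 core Treg genes, Foxp3 included, 3 were higher in lung, 2 of them over 2-fold, and 4 were lower, 1 of them (Lrrc32, at 69.4 and 30.4 FPKM, named after its values were seen) over 2-fold. Their median log2 ratio was -0.01, and the counts of 2 and 1 stand beside 17.8% and 15.5% of all genes. Cd4 was at 195 and 179 FPKM, and Cd3e, a chain of the T cell receptor complex, at 513 and 369. Of 10 T cell genes, 0 were beyond 2-fold under any of these scalings, and their sums were 4576 and 4375 FPKM. Genes of structural cells, apart from Epcam, were present mainly in lung. The lung epithelium list summed to 10.5 and 3127 FPKM, with 3 of its 6 genes at 0 in spleen. Its most abundant gene in lung was Scgb1a1 of club cells (3021 FPKM). In spleen it was Epcam (8.75 FPKM), which was 4.89-fold lower in lung (1.79 FPKM). Of this list, 5 passed the 2-fold limit on the side of lung and 1, Epcam, on that of spleen, beside 17.8% and 15.5% of all genes. Most of these 5 reached 1 FPKM in lung alone, so that filter fixed their direction. The fibroblast list summed to 0.290 and 47.2 FPKM, with 3 of 6 genes at 0 in spleen, Col1a1 highest in spleen (0.129) and Dcn in lung (22.2). B cell genes went the other way, with sums of 245 and 126 FPKM and Cd79b as the most abundant (90.4 and 59.7). The part of these cells in the ratios of the BCL2 family genes was not tested.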

How the data were processed

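GFP+CD4+ cells of spleen and lung gave 1 library each, labelled by tissue, from SMART-Seq HT cDNA and Nextera XT sequenced as 75-base single reads. The authors aligned the reads to mm10 with TopHat2 2.1.1, Bowtie2 2.2.8 and SAMtools 0.1.18, and deposited FPKM per gene symbol from Cuffdiff 2.2.1. The annotation, the options of Cuffdiff, the scaling between libraries and the number of mapped reads are not given in the sources used here.

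Ratios of lung to spleen were computed with a floor of 0.1 FPKM and counted beyond 2-fold. The background was all genes that reached 1 FPKM in one or both libraries. Reads were estimated with transcript lengths of GENCODE M21 (GRCm38), found for 23016 of 24346 symbols, and fragments of 200 ± 80 bases. FPKM multiplied by effective length peaks at the worth of 1 read, a value shared by 209 genes in spleen and 127 in lung within 1%. Ratio intervals of single genes are exact binomial at 95%, at the shortest annotated transcript, which gives the fewest reads and the widest interval. Level intervals are exact Poisson at 95%, at the median transcript length. The estimate of the worth of 1 read and the 2-fold calls were tested on simulated counts. The intervals, the scaling between libraries and the division of reads among the A1 copies were not. Python 3.11.15, numpy 2.4.6, pandas 2.3.3, scipy 1.17.1, biopython 1.88 and matplotlib 3.10.9 were used.

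The members and lists were chosen with earlier results of these data known. Named were the 10 genes, other family genes with at least 1 FPKM, the highest and lowest ratio of each other death list and genes beyond 2-fold, Foxp3, Cd4, Cd3e and the most abundant marker of each other cell type. The pairs of genes compared within a library, the motifs and the group of genes with at least 20 FPKM were chosen after values had been seen, as were the overlapping genes and Gm29094. Other floors, pseudocounts, filters, scalings and fold limits were tried.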

Additional observations from a re-analysis of the deposited data

How the results depend on the processing

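No paired analysis was possible because each tissue has 1 library. For the same reason no library could be left out. The count of genes over 2-fold higher in lung was 3 with every floor, pseudocount and scaling tried except the T cell list as reference, which gave 5 by adding Bcl2l1 and Bad. A 1.5-fold limit also gave 5, summing the A1 copies gave 2 and leaving out Bcl2a1b and Bcl2a1d gave 1. The count over 2-fold lower was 0 except under TPM and with a 1.5-fold limit, which gave 1 each, in both cases Bcl2. The median log2 ratio of 0.53 became 0.10 under TPM, 0.16 with Bcl2a1b and Bcl2a1d summed as 1 gene, 0.16 with the 4 A1 copies summed and 0.15 without Bcl2a1b and Bcl2a1d. It was 0.73 with the T cell list as reference and 0.91 with a filter of 1 or 5 FPKM, which removes Bak1. The ratio of pro-survival to pro-death sums in lung, relative to spleen, moved from 0.903 to 0.535 without Bcl2a1b and Bcl2a1d, to 1.12 without Mcl1 and to 1.04 over all 20 family genes. The sum of the 4 A1 copies and the set of 20 genes were chosen after seeing the data. Without a filter on low values, 11.0% of all genes were over 2-fold higher, beside 17.8% with it. Over the 8 floors, pseudocounts and scalings, the direction held in 8 for Bcl2, Bcl2l1, Bcl2a1b, Bcl2a1d, Bad and Pmaip1. It held in 7 for Mcl1, Bcl2l11 and Bid and in 6 for Bak1. The log2 ratio of Bak1 was 0 at a floor of 1 FPKM. The depth limits Bak1 most, with about 18.2 and 23.1 reads.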
